A study of Mus musculus with 15 samples.

Results

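Cells called stem in the upper (proximal) small intestine were compared between mice on a high fat diet and mice on a control diet. A cell was a member when the authors' cell table called it stem and placed it in the proximal small intestine, which gave 2036 cells of 18919 in the whole table. They made up 2036 of the 8052 proximal cells and 2036 of the 4618 cells called stem in any organ. All 5 mice were 6 months old and carried the Lgr5-eGFP-IRES-CreERT2 allele, in which a green fluorescent protein marks cells that express Lgr5, so the control mice carried the reporter too. The control diet, fed to 2 mice, held 10% of its kcal as fat, and the high fat diet, fed to 3 mice, held 60%. Each mouse gave 1 single-cell RNA library per organ, made with Seq-Well, a method that captures single cells in small wells. Nothing in the labels pairs a control mouse with a high fat diet mouse.

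Lgr5-expressing cells at the base of the crypt divide to renew the intestinal epithelium and sit between Paneth cells, which secrete defensins and other antimicrobial proteins. The proximal small intestine absorbs most dietary fat. Fatty acids that enter a cell are bound by carrier proteins, activated to acyl-CoA and burned in mitochondria after passage through the carnitine shuttle, or shortened in peroxisomes. Receptors of the PPAR family, which fatty acids activate, are known to raise many genes of these steps in the intestine and liver.

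The stem call was the same as at least 1 unique molecular identifier (UMI, 1 counted RNA molecule) of Lgr5 or eGFP in 18919 of 18919 cells, so Lgr5 and eGFP are described and not tested. Lgr5 stood at 219.8 and 168 CPM (the gene's UMIs scaled to the same total of UMIs in each mouse, summed over these cells) in control mice and at 166, 175 and 157 CPM in high fat diet mice. The other 11 measured stem cell markers summed to 9943 and 9348 CPM in control and 8048, 10484 and 10582 CPM in high fat diet mice, against 2691 to 4212 CPM in the not-stem cells of the same libraries. On these markers the label fits the data on both diets, but least clearly in high fat diet mouse 1. This mouse had the lowest stem-called sum and the highest not-stem sum (4212 CPM). The crypt base marker Olfm4 was found in 96.2% of its not-stem cells, against 66.4% to 79.2% in the other mice. The fatty acid carrier gene Fabp1 was found in 95.2% of its stem-called cells, against 82.5% and 83.9% in high fat diet mice 2 and 3. The part of RNA set free from broken cells in these values was not tested.

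High fat diet mice had the smaller share of stem-called cells. It was 36.8% and 32.1% of proximal cells in control mice 1 and 2, and 19.2%, 17.4% and 18.2% in high fat diet mice 1, 2 and 3. The groups did not overlap, and the means were 34.5 ± 3.31% (SD, n = 2) and 18.3 ± 0.914% (SD, n = 3). An exact two-sided permutation test over mice gave p = 0.1, the smallest value this design allows. The call depends on depth. Drawing 3000 UMIs at random from each cell, with shallower cells left out, gave 16.7% and 12.7% against 10.2%, 7.54% and 7.92%, again without overlap.

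The members numbered 606 and 617 in control mice and 207, 302 and 304 in high fat diet mice, with median depths of 12234.5 and 19819 against 6870, 12571 and 13744 UMIs. Their summed counts per mouse ran from 2328397 to 13694552 UMIs. High fat diet mouse 1 was the shallowest library and had the highest median share of mitochondrial UMIs in stem-called cells, at 19.2% against 13.9% to 16.0% in the others. Over the 10 pairs of proximal libraries, 3 cell barcodes were shared. Some stem-called cells carried markers of other cell types: 24 and 94 control cells and 2, 14 and 8 high fat diet cells held at least 4 different Paneth markers. At least 4 different T and B cell markers were held by 17 and 18 control cells and 31, 13 and 8 high fat diet cells.

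Creb3l3, Mgll, the thioesterase genes Acot1 and Acot2, and Acadl and Slc25a20 of mitochondrial fatty acid oxidation rose in the stem-called cells of high fat diet mice, and Scd2, which makes unsaturated fatty acids, fell. Raw counts were summed per mouse and tested with edgeR's quasi-likelihood test, with p-values adjusted over all genes by Benjamini-Hochberg. It called 15 of 12339 genes at an adjusted p under 0.05, which is 0.122% of those tested, 14 higher and 1 lower. Values are given here for 14 of the 15. An unadjusted p under 0.05 was reached by 228 genes on the higher side (1.85%) and 231 on the lower side (1.87%), and the median over all genes was 0.00 on the log2 scale. The p-values rest on the spread between these mice only, taken from a fit of their proximal, distal and colon sums. Sums of the same mouse entered that fit as independent samples, so this spread is not that of the proximal libraries alone.

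**Figure D1:**
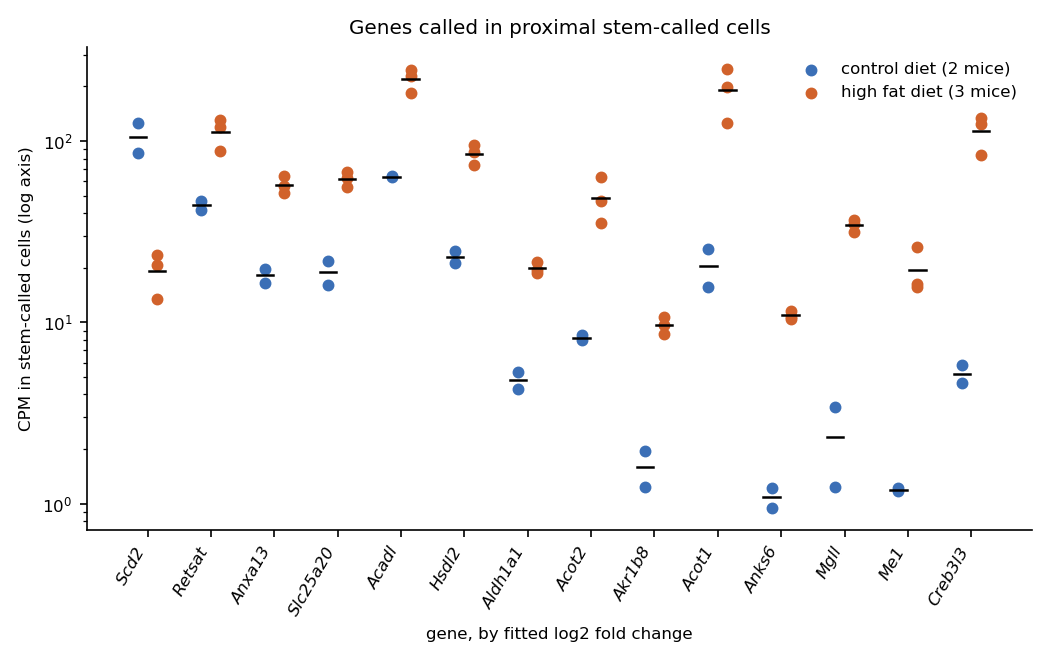
CPM in proximal stem-called cells (log axis) of 14 called genes, ordered by fitted log2 fold change. Points are mice, 2 on the control diet and 3 on the high fat diet, and bars are group means. Scd2 is the gene whose high fat diet mice all lie below the control mice, and the high fat diet mice lie above them in the other 13.

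Creb3l3 encodes a membrane-bound transcription factor of fasting and lipid metabolism (mm10 chr10:81084324-81098874, minus strand). It stood at 5.83 and 4.60 CPM in control mice and at 125, 134 and 83.3 CPM in high fat diet mice. Every high fat diet mouse was far above both controls, and the means were 5.21 ± 0.866 (SD, n = 2) and 114 ± 27.0 CPM (SD, n = 3). The fitted log2 fold change was 4.49 (SE 0.39, adjusted p = 0.00013 by edgeR). After thinning to 3000 UMIs, a Creb3l3 UMI was found in 1.65% and 0.972% of control stem-called cells and in 24.3%, 23.7% and 18.1% of those on the high fat diet. At full depth these shares were 5.12% and 5.83% against 50.7%, 57.9% and 52.3%, so more cells held the transcript on the high fat diet by either count.

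Acadl, which starts the oxidation of long-chain fatty acids in mitochondria, lies at chr1:66830839-66863277 on the minus strand. Its levels were 64.1 and 63.0 CPM in control mice and 228, 245 and 185 CPM in high fat diet mice. The groups did not overlap, and it rose by a log2 fold change of 1.82 (SE 0.22, adjusted p = 0.00209 by edgeR). Slc25a20, the carrier that brings acylcarnitines into mitochondria (chr9:108662088-108684641, plus strand), had 16.0 and 21.8 CPM against 67.9, 62.3 and 56.1 CPM. Here too the groups stood apart, and the log2 fold change was 1.73 (SE 0.26, adjusted p = 0.0103 by edgeR).

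Acot1 and Acot2 are neighbouring paralogs on the plus strand (chr12:84009490-84018371 and chr12:83987861-83993873) whose products split acyl-CoA into fatty acid and coenzyme A, in the cytosol and in mitochondria. Acot1 was measured at 25.4 and 15.7 CPM in control mice and 249.96, 199.7 and 126 CPM in high fat diet mice. Acot2 was measured at 8.49 and 7.96 CPM against 46.8, 63.2 and 35.4 CPM. Neither gene's groups overlapped, and both rose, Acot1 by 3.28 (SE 0.44, adjusted p = 0.00351) and Acot2 by 2.59 (SE 0.34, adjusted p = 0.00328) on the log2 scale by edgeR. The paralogs are similar in sequence, so reads may have been split between them, and how the authors counted such reads is not given in the sources used here.

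Mgll, which releases fatty acids from monoglycerides (chr6:88724412-88828360, plus strand), went from 3.40 and 1.24 CPM to 31.4, 36.6 and 34.8 CPM. Me1, an enzyme that makes NADPH (chr9:86581371-86695953, minus strand), went from 1.21 and 1.17 CPM to 16.3, 26.2 and 15.6 CPM. In both genes the 3 high fat diet mice stood far above the controls, with log2 fold changes of 3.97 (SE 0.43, adjusted p = 0.00113) and 4.03 (SE 0.50, adjusted p = 0.00209) by edgeR. The 10% of stem-called cells with most Me1 held 76.3%, 74.6% and 84.2% of its UMIs in high fat diet mice. In control mice, with 10 and 16 UMIs, that share was 100%. Hsdl2, a peroxisomal protein of the short-chain dehydrogenase family (chr4:59581563-59618689, plus strand), rose from 21.4 and 24.7 to 95.3, 86.9 and 73.8 CPM, by 1.92 on the log2 scale (SE 0.33, adjusted p = 0.0348).

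Scd2, a desaturase that puts a double bond into saturated fatty acids (chr19:44293674-44306864, plus strand), was the called gene that fell. It had 125 and 86.4 CPM in control mice and 20.6, 13.5 and 23.4 CPM in high fat diet mice. No high fat diet mouse reached the lower control mouse. The control mean was 5.52 times the high fat diet mean, and the log2 fold change was -2.42 (SE 0.32, adjusted p = 0.00328 by edgeR).

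Retinoid enzymes were among the called genes. Retsat, which saturates retinol (chr6:72598475-72608425, plus strand), was at 47.0 and 41.5 CPM in control mice and 131, 119 and 88.6 CPM in high fat diet mice. Aldh1a1, which makes retinoic acid from retinal (chr19:20492715-20643465, plus strand), was at 5.34 and 4.31 CPM against 21.5, 18.6 and 19.5 CPM. Both were higher in each high fat diet mouse, with log2 fold changes of 1.38 (SE 0.22, adjusted p = 0.0158) and 2.08 (SE 0.37, adjusted p = 0.0398) by edgeR. The 10% of stem-called cells with most Aldh1a1 held 72%, 83.3% and 96.8% of its UMIs in high fat diet mice. In control mice, with 44 and 59 UMIs, that share was 100%. In not-stem cells Aldh1a1 was at 7.63 and 14.3 against 50.1, 84.4 and 74.4 CPM. The remaining called genes were Anks6, an ankyrin-repeat gene of the primary cilium, at 1.21 and 0.949 against 10.7, 11.5 and 10.5 CPM (adjusted p = 0.0013), Anxa13, an annexin of the intestinal epithelium, at 19.8 and 16.5 against 64.0, 56.5 and 51.8 CPM (adjusted p = 0.0349), and Akr1b8, an aldo-keto reductase, at 1.94 and 1.24 against 10.7, 8.64 and 9.67 CPM (adjusted p = 0.0395).

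The number of calls depended on single proximal libraries. Each fit that left out 1 mouse dropped its proximal library only. The mouse's distal and colon sums stayed in the fit and still entered the estimate of the spread. Without control mouse 1 or control mouse 2, 4 genes were called each time, and without high fat diet mouse 1, 9 genes were called. Creb3l3 and Mgll were called in each of the 5 fits that left out 1 mouse, Anks6 and Scd2 in 4, Acadl, Me1, Acot1 and Acot2 in 3, Slc25a20 in 2 and Retsat in 1, while Hsdl2, Anxa13, Akr1b8 and Aldh1a1 were called in 0, with adjusted p-values of 0.0631 to 0.78. No direction changed in these fits.

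Just past the threshold stood more genes of lipid handling, named by a rule of smallest p among genes whose mice did not overlap, so the lack of overlap is no finding for them. Over all genes tested, 7.31% had every high fat diet mouse above both controls and 9.78% had every one below. Fabp1, the carrier that binds fatty acids in enterocytes (chr6:71199827-71205023, plus strand), had 16.6 and 22.1 CPM in control mice and 951, 461 and 437 CPM in high fat diet mice, with a log2 fold change of 5.02 (SE 0.86, adjusted p = 0.0587). That was the largest fold change among the genes named by this rule or called, and high fat diet mouse 1 was apart from the other two. The others on the higher side were the aldo-keto reductase Akr1c19, the carboxylesterase Ces1f, the peroxisomal membrane genes Pxmp4 and Abcd3, the progestin receptor gene Paqr7, 5330417C22Rik, and Cpt2, Acadvl and Eci2 of mitochondrial oxidation. Their adjusted p-values ran from 0.0587 to 0.101.

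On the lower side of the same rule, Ceacam10, of the carcinoembryonic antigen family, had 71.5 and 26.8 CPM in control mice and 10.7, 7.98 and 7.20 CPM in high fat diet mice (log2 fold change -2.48, SE 0.46, adjusted p = 0.0587). Myc, a transcription factor that drives growth and a target of Wnt signalling, had 159 and 135 CPM against 64.9, 75.8 and 54.5 CPM (log2 fold change -1.14, SE 0.22, adjusted p = 0.0675). Neither passed the test. Also on this side were Tmem252, Traf4, Aim2, Mfsd4, Mcf2l and the Paneth genes AY761184 and Defa17, with adjusted p-values from 0.141 to 0.264. Aim2, a sensor of DNA in the cytosol, differed mostly between the controls, at 2.67 and 39.0 CPM.

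A search for the direct repeat that PPAR receptors are known to bind is shown because many of the named genes are known PPAR targets. The letters AGGNCANAGGNCA were searched on both strands of windows from 250 bases before to 50 bases after each RefSeq start (GRCm38.p6). Of 32851 windows, 0.381% held a match. Among 33 genes, the called ones and those just past the threshold, 24 had an entry and 2 of these had a match, 1 in a gene with higher and 1 in a gene with lower values on the high fat diet. The first, Fabp1, is shown. The 11 called genes with an entry had 0. The Fabp1 match, in capitals, lies 67 to 55 bases upstream of the RefSeq start and is read on the opposite strand. The printed stretch, match and flanks together, spans GRCm38 chr6:71199804-71199832 of this plus-strand gene. It is given 5′ to 3′ on the gene's strand.
Fabp1: acaatcacTGACCTATGGCCTatatctga
Such a match is a description of these letters and not a site of binding, and no match says only that the letters are not in these windows.

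Lists of genes by function placed the called genes among their neighbours in the pathway. Of 15 measured genes of mitochondrial fatty acid oxidation, 15 were tested, 9 had an unadjusted p under 0.05 on the higher side and 0 on the lower, and the median log2 fold change was 0.62, against 0.00 over all genes. Acadl was the 1 called. Acaa2, the last enzyme of the cycle, had 223 and 198 CPM in control mice and 445, 471 and 369 CPM in high fat diet mice, and Hadha, of the trifunctional protein, had 343 and 291 against 808, 470 and 527 CPM. Neither passed the adjusted test.

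The carnitine shuttle had 5 members tested, with 3 at an unadjusted p under 0.05, all higher, and a median of 1.07. Besides Slc25a20 these were Cpt2, the inner carnitine transferase, at 62.6 and 50.3 against 113, 131 and 102 CPM, and Cpt1a, the outer one that sets the rate of entry, at 256 and 128 against 505, 466 and 476 CPM. In peroxisomal oxidation, 9 of 16 were at that level, all higher, with a median of 0.54, and Hsdl2 was the 1 called. Acaa1b, a thiolase, was near 0 in control mice, at 0 and 0.219 against 3.44, 3.32 and 1.65 CPM, and was not called. Of 8 acyl-CoA thioesterases, 3 were at that level and 2 were called.

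Genes of fatty acid uptake and activation had 4 of 12 at an unadjusted p under 0.05, all higher, with a median of 0.41. Fabp2, the second intestinal fatty acid carrier, had 205 and 150.4 CPM in control mice and 942, 401 and 262 CPM in high fat diet mice. PPAR receptors and classic targets had 16 tested, with 6 higher and 1 lower at that level and a median of 0.39. Pdk4, which restrains glucose oxidation, had 7.40 and 0.219 against 50.2, 34.8 and 11.9 CPM, and Angptl4, an inhibitor of lipoprotein lipase, had 10.2 and 4.75 against 61.4, 62.1 and 27.8 CPM. The member on the lower side was Ppard, a receptor of the family itself, at 85.9 and 81.6 against 51.5, 60.5 and 49.2 CPM. Apart from Creb3l3, which is also in this list, none of these was called.

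In fatty acid synthesis and NADPH supply, 14 were tested, of which 2 stood higher and 2 stood lower with an unadjusted p under 0.05, and the median was 0.09. Me1 was called, and Acacb, the acetyl-CoA carboxylase whose product restrains carnitine transfer, had 2.55 and 2.04 CPM in control mice and 35.6, 21.7 and 12.5 CPM in high fat diet mice (adjusted p = 0.121). On the lower side stood Acly, which makes cytosolic acetyl-CoA, and Mlxipl, the carbohydrate-sensing transcription factor, at 147 and 215 against 81.6, 101 and 103 CPM, and neither passed the adjusted test. Cholesterol synthesis and uptake had 0 of 19 at that level, and its median was 0.25. Nuclear-encoded oxidative phosphorylation had 0 of 34, and its median was 0.00.

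**Figure D2:**
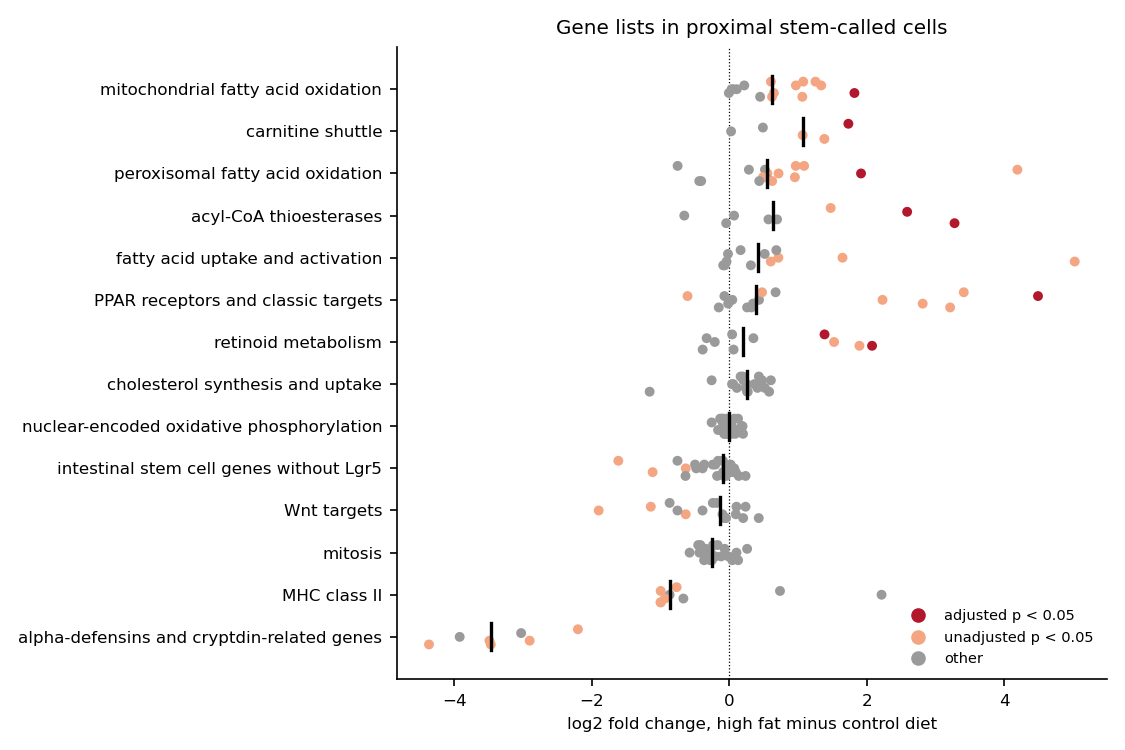
Fitted log2 fold change, high fat minus control diet, of every tested member of 14 gene lists in proximal stem-called cells. Each point is a gene, coloured by whether it passed the adjusted test, an unadjusted p under 0.05 or neither, and black bars are list medians. Oxidation lists lie mostly to the right of 0, oxidative phosphorylation lies on it, and MHC class II and alpha-defensins lie mostly to the left.

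No stem cell or Wnt gene of the lists passed the adjusted test. Of 28 stem cell genes other than Lgr5, 0 stood higher and 3 stood lower with an unadjusted p under 0.05, against 1.87% lower over all genes, with a median of -0.10. These were Tnfrsf19 (53.5 and 37.4 against 10.7, 28.4 and 21.0 CPM), the Ephrin receptor gene Ephb3 (107 and 95.7 against 61.8, 76.5 and 52.9 CPM) and Nrn1. Olfm4, the abundant marker of crypt base cells, was at 4749 and 4535 CPM in control and 4154, 5532 and 5304 CPM in high fat diet mice, which overlapped. Wnt targets had 3 of 16 lower, Myc, Ephb3 and Lef1, and a median of -0.14, and mitosis genes had 0 of 22 in either direction with a median of -0.24.

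MHC class II genes, which present antigen, had 5 of 9 lower at an unadjusted p under 0.05, with a median of -0.87. Cd74, the chain that escorts class II molecules, had 278 and 383 CPM in control mice and 135, 225 and 130.0 CPM in high fat diet mice, and H2-Ab1 had 234 and 293 against 148, 156 and 84.7 CPM. The groups did not overlap in either gene, and neither passed the adjusted test. Over all genes tested, 9.78% had every high fat diet mouse below both controls. T and B cell markers in the same sums were 266 and 117 CPM in control and 282, 184 and 94.8 CPM in high fat diet mice. Myeloid markers were between 12.9 and 20.2 CPM, and both overlapped between diets. The part of immune cells in the class II values was not tested.

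Paneth genes were lower in the stem-called cells of high fat diet mice, without passing the test. Of 7 measured alpha-defensins and related genes, 5 were lower and 0 higher at an unadjusted p under 0.05, and the median log2 fold change was -3.47. Defa24 had 416 and 262 CPM in control mice and 27.1, 117 and 71.0 CPM in high fat diet mice, and AY761184 had 217 and 80.9 against 3.01, 11.3 and 5.55 CPM (adjusted p = 0.162). The whole list of 10 measured Paneth markers summed to 1687 and 891 CPM against 132, 381 and 230 CPM in stem-called cells, and to 1447 and 926 against 500, 269 and 350 CPM in not-stem cells of the same libraries. The 10% of stem-called cells with most Defa24 held 93.6% and 87.5% of its UMIs in the control mice. Without stem-called cells that held at least 4 different Paneth or T and B cell markers, the log2 fold change of AY761184 went from -4.37 to -1.68 and that of Defa17 from -2.90 to -0.85. Both genes are on the Paneth marker list used for this removal, so a smaller difference was partly built in. With the stem call remade after thinning, the log2 fold changes of AY761184 and Defa17 were -1.15 and -0.26. Near-identical defensin genes may share reads.

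Markers of other secretory cells were measured as well. In stem-called cells, 9 goblet markers summed to 800 and 395 CPM in control and 1536, 1728 and 760 CPM in high fat diet mice, and 12 enteroendocrine markers to 128 and 111 against 401, 222 and 217 CPM. The 10 tuft markers summed to 77.5 and 79.4 CPM against 147, 103 and 149.5 CPM. Goblet sums overlapped, and enteroendocrine and tuft sums did not. Their part in the results was not tested. Without stem-called cells that held at least 4 different goblet, enteroendocrine or tuft markers, a choice made after seeing the data, 20 genes were called. Without cells that held at least 4 T and B cell or Paneth markers, 16 were called.

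**Figure D3:**
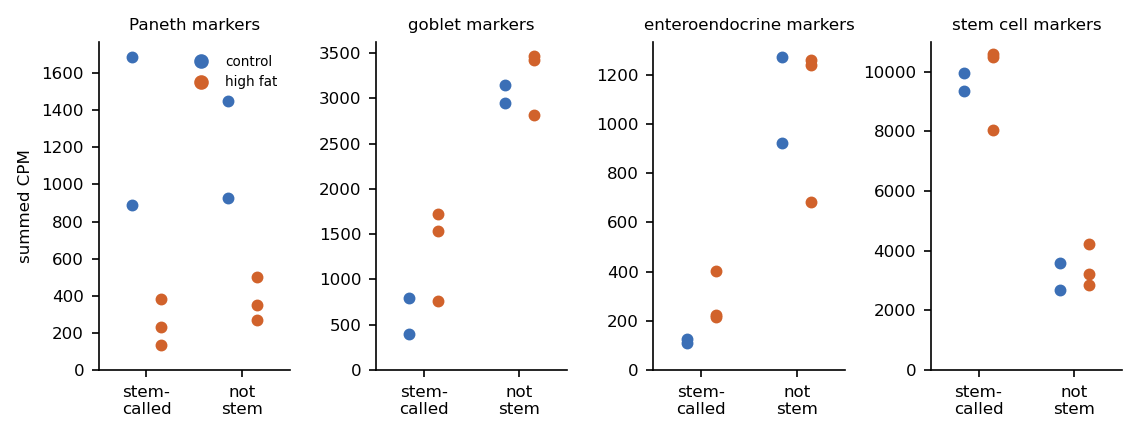
Summed CPM of the measured markers of 4 cell types in stem-called and not-stem cells of the proximal libraries. Each point is a mouse on the control or the high fat diet. Paneth markers are higher in both control mice than in any high fat diet mouse in either kind of cell, and stem cell markers are higher in stem-called than in not-stem cells in each of the 5 mice.

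The same contrast in the not-stem cells of these libraries asks whether the differences were limited to stem-called cells, since RNA set free from broken cells can reach every well. Of 14307 genes, 12 were called, which is 0.0839%, 11 higher and 1 lower. Before adjustment, 217 genes (1.52%) stood higher and 226 (1.58%) lower with a p under 0.05. The 2 populations come from the same mice and libraries, so their values are set side by side.

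Creb3l3 in not-stem cells was at 9.35 and 22.9 CPM in control mice and 176, 305 and 244 CPM in high fat diet mice, above its level in stem-called cells of the same mouse each time (log2 fold change 3.92, SE 0.95, adjusted p = 0.459). Acadl was at 70.6 and 77.7 against 187, 284 and 225 CPM (adjusted p = 0.063), and Scd2 at 248 and 140.2 against 19.2, 14.2 and 23.3 CPM (adjusted p = 0.00278). Fabp1 was at 42.3 and 156 against 1751, 1568 and 1650.0 CPM (adjusted p = 0.794). In each of these genes the high fat diet mice lay on the same side of both controls as in stem-called cells. Not-stem cells are mixed and hold enterocytes, whose markers summed to 5478 to 7973 CPM there and 2453 to 3875 CPM in stem-called cells.

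Among the genes of smallest p in not-stem cells were Scd2, Ces1f, Retsat, Acot2, Me1 and Pxmp4. Ces1f, a carboxylesterase, rose there from 12.1 and 16.4 to 78.8, 134 and 85.6 CPM (adjusted p = 0.00493), while in stem-called cells it had 4.13 and 2.92 against 30.9, 25.9 and 13.8 CPM (adjusted p = 0.0602). Me1 rose from 1.01 and 3.18 to 46.6, 90.0 and 65.1 CPM (adjusted p = 0.00545). On the lower side, besides Scd2 and AY761184, stood Dlgap4, the clock gene Per1, Ccdc117 and Dedd2, none of which passed (adjusted p = 0.121 to 0.486).

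**Figure D4:**
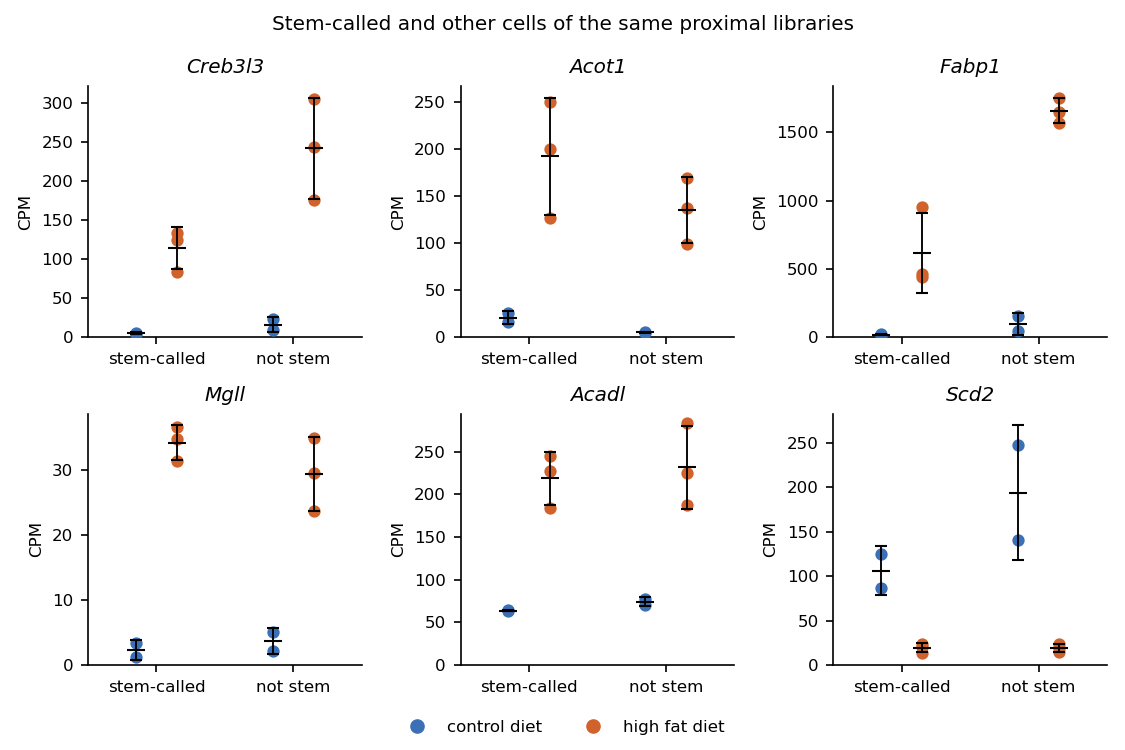
CPM of 6 genes in stem-called and not-stem cells of the proximal libraries, with points for mice and bars for the mean and SD of 2 control and 3 high fat diet mice. Creb3l3 and Fabp1 reach higher levels in not-stem cells, while Acot1 is higher in stem-called cells on both diets.

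The difference of the diet effect between the 2 populations was tested itself, with the mouse as a block, and 4 of 12920 genes were called (0.0310%). Acot1 was among them, with a log2 difference of -1.45 (SE 0.16, adjusted p = 0.0101 by edgeR). Its control levels were 25.4 and 15.7 CPM in stem-called but 5.32 and 4.85 CPM in not-stem cells, and its high fat diet levels were 249.96, 199.7 and 126 against 169, 137 and 98.5 CPM. Acot1 was thus higher in stem-called than in not-stem cells in 5 of 5 mice, and its fold change was the smaller one in stem-called cells. Without the mouse block edgeR called 0 genes, with 75 at an unadjusted p under 0.05, and with the block limma voom called 4 and DESeq2 10.

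Vim, a filament protein of mesenchymal and immune cells, had 3.76 and 2.12 CPM in control and 9.88, 19.1 and 16.0 CPM in high fat diet stem-called cells, but 42.0 and 20.8 against 19.2, 33.1 and 31.0 CPM in not-stem cells (log2 difference 2.50, SE 0.20, adjusted p = 0.000567). Its UMIs in stem-called cells were few, 31 and 29 on the control diet against 23, 86 and 78. Afp, the alpha-fetoprotein gene, was called on few counts in stem-called cells, 0 and 5.77 against 0, 0.443 and 0 CPM, beside 0 and 2.69 against 0, 39.2 and 24.9 CPM in not-stem cells. For the other genes named above, the test of the difference gave no call. That does not show equal effects: for Creb3l3 the difference was 0.61 (SE 0.41) and for Acadl 0.14 (SE 0.15).

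Acot1, Fabp1 and Creb3l3 did not stand in the same ratio in both populations of a library. Acot1 UMIs per Creb3l3 UMI were 2.00, 1.49 and 1.51 in stem-called cells of the 3 high fat diet mice and 0.961, 0.448 and 0.404 in not-stem cells. Fabp1 per Creb3l3 went the other way, at 7.61, 3.44 and 5.25 in stem-called and 9.94, 5.14 and 6.76 in not-stem cells. The direction was the same in 3 of 3 mice for both pairs. The part of free RNA in these levels was not tested.

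Cells with at least 4 different T and B cell markers that were not called stem served as a further comparison. They were mixed: epithelial markers summed to 4006 to 5371 CPM in them, as in stem-called cells (4663 to 5380 CPM). The diet contrast called 36 of 9425 genes there (0.382%), among them Creb3l3 with a log2 fold change of 4.91. Other genes of the stem-called result were called there too, with log2 fold changes of 5.09 for Acot1, 4.83 for Me1 and 4.32 for Akr1b8. Retsat (2.29), Hsdl2 (2.25) and Scd2 (-2.52) were also called. Mgll, Acadl, Acot2, Slc25a20, Anxa13 and Aldh1a1 went in the same direction as in stem-called cells without passing, and Anks6 was not tested there. The difference of the diet effect between stem-called cells and these cells was called for 8 of 10967 genes (0.0729%), which included the leukocyte gene Ptprc, the tuft and lymphoid gene Lrmp and the receptor gene Kit, and not Creb3l3, Acot1 or Acadl. Ptprc, for one, was at 1008 and 658 CPM in control and 488, 463 and 254 CPM in high fat diet mice, against 8.62 to 26.2 CPM in stem-called cells.

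A stricter set, chosen after seeing the data, asked in addition for 3 times as many UMIs of T and B cell markers as of epithelial ones. It left 25 and 11 control cells and 18, 7 and 0 high fat diet cells, too few for a test. Epithelial markers summed to 1098 and 116 CPM in control and 990 and 2329 CPM in high fat diet mice 1 and 2, so these cells too were not free of epithelial RNA. In the 18 cells of high fat diet mouse 1, 0 of 87906 UMIs were Acot1 and 0 were Creb3l3, which allows up to 34.1 CPM for each by 3 counts, or 42.0 CPM by the upper bound of the exact Poisson 95% interval, against 249.96 and 125 CPM in its stem-called cells. In the 7 cells of high fat diet mouse 2, each gene had 3 UMIs, 39.7 CPM with an exact Poisson 95% interval of 8.19 to 116 CPM, against 199.7 and 134 CPM in its stem-called cells. All UMIs of Acot1 were in 1 of the 7 cells, and the same held for Creb3l3 and for Mgll. The intervals for these genes in mouse 2 do not cover that. Fabp1 was present, with 21 UMIs (239 CPM, 148 to 365) and 8 UMIs (106 CPM, 45.7 to 209), against 951 and 461 CPM in stem-called cells and 6.39 and 4.31 CPM in the same set of control mice. Other genes stood otherwise in mouse 2. Hsdl2 had 8 UMIs (106 CPM) against 86.9 CPM in stem-called cells, Mgll had 4 (52.9 CPM) against 36.6 CPM, Aldh1a1 had 3 (39.7 CPM) against 18.6 CPM, and Acadl had 16 (212 CPM) against 245 CPM, and each of these stem-called levels lies within the interval of the 7 cells. In mouse 1, Hsdl2 (34.1 CPM, 7.04 to 99.7), Mgll (11.4 CPM, 0.288 to 63.4) and Acadl (91.0 CPM, 39.3 to 179) were below the stem-called levels of 95.3, 31.4 and 228 CPM. Of these levels only that of Acadl lay outside the interval. Scd2 was above its stem-called level in all 4 mice with such cells. That level lay within the interval in the control mice and below it in the high fat diet mice. These limits and intervals cover counting error only. The set was chosen for few epithelial UMIs beside those of T and B cell markers. Low levels of epithelial genes are thus partly built into it, and the limits hold for these cells only. The 7 cells also carried enteroendocrine markers at 14173 CPM, so they were not lymphocytes alone.

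Distal stem-called cells of the same 5 mice, 1884 cells, gave the same contrast further along the small intestine. There 1 of 12339 genes was called (0.00810%), and 330 had an unadjusted p under 0.05. The difference of the diet effect between proximal and distal cells, tested with the mouse as a block, was called for 22 of 11877 genes (0.185%), 5 higher and 17 lower in proximal cells. Without the mouse block edgeR called 0, with 181 at an unadjusted p under 0.05, while with the block limma voom and DESeq2 each called 23. Without high fat diet mouse 3 the block fit called 213 and without high fat diet mouse 2 it called 10, so this count rests on single mice and on the block.

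Paneth genes and Ceacam10 led the lower side. Ceacam10 was at 248 and 81.3 CPM in distal control and 318, 196 and 236 CPM in distal high fat diet mice, against the proximal 71.5 and 26.8 and 10.7, 7.98 and 7.20 CPM (log2 difference -3.10, SE 0.21, adjusted p = 3.75e-05). AY761184 was at 258 and 93.5 against 81.5, 363 and 1016 CPM in distal cells (log2 difference -5.81, SE 0.49, adjusted p = 0.000159). Gm14851, Gm15284 and Mmp7, the Paneth metalloproteinase that activates defensins, were called in the same direction. In these 4 Paneth genes the distal high fat diet mouse 3 had the highest level of the 5 distal mice. Of its 501 distal stem-called cells, 488 held fewer than 4 T and B cell markers, and 181 also held fewer than 4 Paneth markers. By both limits 216 of 231 and 420 of 565 cells remained in distal control mice, and 298 of 354 and 202 of 233 in high fat diet mice 1 and 2. The part of cells with Paneth markers in this difference was not tested.

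The 5 on the higher side were Alpi, Gsta4, Akr1c19, Ces1f and Gm10800, of which Gsta4 and Gm10800 are named after their values were seen. Alpi, the alkaline phosphatase of the enterocyte brush border, was at 14.4 and 21.0 against 49.0, 106 and 51.2 CPM in proximal cells and at 3.85 and 12.4 against 2.62, 1.87 and 4.60 CPM in distal cells (log2 difference 3.07, SE 0.43, adjusted p = 0.0114). Ces1f was at 6.05 and 7.69 against 3.27, 1.24 and 5.11 CPM in distal cells (log2 difference 3.66, SE 0.63, adjusted p = 0.046). The lipid genes called in proximal cells were not called in this test. Creb3l3 had at most 3.99 CPM in any distal mouse, Acot1 had 10.5 and 11.8 against 76.3, 31.7 and 29.6 CPM, and Scd2, higher in distal than in proximal cells on both diets, had 528 and 579 against 152, 127 and 254 CPM.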

How the data were processed

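The authors deposited 1 table of UMI counts per gene and cell, already filtered for quality, with a cell table that gives each cell's mouse, organ, diet and stem call. The genome build is mm10 per the submitters' processing notes, and the aligner and counting program are not given in the sources used here. Genes seen in very few cells of a library look removed, so a 0 over a whole library gives no limit.

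Counts were summed per mouse and cell class. All 15 samples, in 6 groups of diet and organ, entered 1 edgeR fit per cell class (version 4.0.16, R 4.3.3) with TMM scaling, filterByExpr and the quasi-likelihood test, and Benjamini-Hochberg adjustment over all genes tested. A gene was called at an adjusted p under 0.05. Tests of a difference used the mouse as a block. The fits of the diet effect in stem-called cells and of its difference from not-stem cells were also run on simulated data. Those counts were independent, with no spread shared by sums of a mouse, so the run cannot check how such sums were treated. CPM divides by the summed UMIs. limma 3.58.1 and DESeq2 1.42.0 were alternatives, and cells were thinned to 3000 UMIs in others. Scrublet's doublets were kept, and removed in an alternative.

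Named were all called genes, the 10 of smallest p on each side whose mice did not overlap between diets, the 2 of smallest p in each list, the 6 of smallest p in each test of a difference, and the 6 on each side in not-stem cells. Of these the text prints a selection, and list members beyond this rule were chosen after their values were seen. The members and lists were chosen with earlier results of these data known. 4 genes are not reported here and were left out of the lists, 1 of them called in stem-called cells, but they stay in the counts of calls. Gene positions are from GENCODE M21, and promoter sequences from RefSeq.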

Additional observations from a re-analysis of the deposited data

Results flagged for a closer look

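Tests of a difference between effects called the following genes. Between stem-called and not-stem cells, the log2 diet effect differed by -1.45 for Acot1, 2.50 for Vim and -8.22 for Afp, where Afp rests on libraries at or near 0.

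Between proximal and distal stem-called cells, it differed by -3.10 for Ceacam10, -5.81 for AY761184, -5.76 for Gm14851, -5.12 for Gm15284 and -2.76 for Mmp7. All but Ceacam10 are Paneth cell genes or relatives of the defensins, and in these 4 the distal mouse 3 on the high fat diet was the highest of the distal mice. Of the 501 stem-called cells of that library, 181 held fewer than 4 Paneth and fewer than 4 T and B cell markers. The part of the other cells in the difference was not tested.

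Between stem-called cells and cells with T and B cell markers, it differed by 2.70 for Lrmp, 2.36 for Kit, 1.54 for Ptpn6, 1.59 for Ptprc, 2.03 for Plcg2 and 1.86 for Nin. These 6 genes were higher in the cells with T and B cell markers of control mice than of high fat diet mice on average, and myeloid markers summed there to 506 and 1863 CPM in control and 198, 337 and 72.5 CPM in high fat diet mice. Their part in the difference was not tested.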

How the results depend on the processing

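Against 15 calls in stem-called cells, DESeq2 made 43, limma voom 35, no filter on low counts 31 and the proximal samples alone 24. Leaving out 1 mouse gave 4 to 11. With a replicate block the count was 50 by the cell table's mouse numbers and 49 by the titles', but the numbers are not known to pair mice of different diets: same-numbered deviations correlated at 0.28 and 0.31 by the table and 0.28 and 0.049 by the titles, over 2 pairs each. Against 12 calls in not-stem cells, DESeq2 made 58, limma voom 38, the proximal samples alone 26 and the replicate block 29 and 33, and leaving out 1 mouse gave 2 to 12. Of 4 calls for stem-called against not-stem cells, DESeq2 made 10, no mouse block 0, the stem call after thinning 2, and leaving out 1 mouse gave 2 to 18. Afp turned to 0.39 without cells with secretory markers. Of 22 calls for proximal against distal cells, no filter made 162, no mouse block 0, the stem call after thinning 5, and leaving out 1 mouse gave 10 to 213. Of 36 calls in cells with T and B cell markers, a minimum of 6 markers made 7, DESeq2 119, limma voom 8, no filter 263, and leaving out 1 mouse gave 5 to 97. Of 8 calls for stem-called cells against these, 6 markers made 14, DESeq2 35, limma voom 25, no filter 221, and leaving out 1 mouse gave 0 to 74. In the fits of the diet effect in 1 cell class, leaving out 1 mouse dropped its proximal library only. Sums of its other organs stayed where the fit held them. In tests of a difference both sums of the mouse were dropped. The causes were not tested. Among named genes in stem-called cells, 452 alternative values kept their direction and side of the threshold, 86 passed it and 55 lost it, and none reversed. High fat diet mouse 1, the shallowest library, limits the precision for genes of few UMIs.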

Other observations

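Further gene groups in proximal stem-called cells were measured on the same 5 mice. Glutathione and NRF2 defence had 5 of 28 genes at an unadjusted p under 0.05, all higher on the high fat diet, with a median log2 fold change of 0.24. Gstm3, a glutathione transferase, had 20.3 and 26.7 CPM in control mice and 43.8, 57.6 and 38.9 CPM in high fat diet mice. Triglyceride resynthesis and chylomicron genes had 3 of 19, all higher, and Mttp, which loads lipid onto chylomicrons, had 173 and 164 against 285, 282 and 252 CPM. Rbp2, the intestinal retinol carrier, had 6.19 and 10.3 against 33.5, 35.0 and 22.8 CPM. The groups did not overlap in these 3 genes, and none passed the adjusted test. Over all genes tested, 7.31% had every high fat diet mouse above both controls.

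Sugar digestion, uptake and glycolysis had 4 of 22 genes at that level, all lower, with a median of -0.15. Hk2, a hexokinase that starts glycolysis, had 134 and 94.7 CPM in control mice and 59.7, 57.2 and 73.6 CPM in high fat diet mice, and Pkm, which ends it, had 282 and 369 against 181, 231 and 237 CPM. In the Notch list, Notch1 had 150.4 and 171 against 85.0, 103 and 134 CPM, while Spdef, a factor of goblet and Paneth fate, had 5.95 and 2.77 against 12.9, 11.7 and 11.1 CPM. The goblet marker sums given for these mice were also higher in high fat diet mice 1 and 2 than in both controls, and their part in the Spdef values was not tested. None of these genes passed the adjusted test.

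A pair of genes of the carboxylesterase family differed in opposite directions. Ces1d had 68.9 and 55.7 CPM in control mice and 23.6, 33.7 and 21.4 CPM in high fat diet mice (adjusted p = 0.311), while Ces1f had 4.13 and 2.92 against 30.9, 25.9 and 13.8 CPM (adjusted p = 0.0602). Their sequences are related, and reads may have been shared.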
